A study of Mus musculus with 8 samples.

Results

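Enzymes and remodellers that write, erase or act on chromatin marks were examined in the peripheral retina of mouse embryos at embryonic day 16.5. Tissue with a floxed and a null Ezh2 allele was set against control tissue with a floxed and a wild-type allele, both with Cre. The genes were chosen by symbol, as the rows of the gene table named for lysine demethylases (Kdm), SET-domain lysine methyltransferases (Kmt, Mll, Setd, Setdb), lysine acetyltransferases (Kat), histone deacetylases (Hdac), sirtuins (Sirt), DNA methyltransferases (Dnmt), TET dioxygenases (Tet), CHD remodellers (Chd) and subunits of the SWI/SNF and ISWI remodellers (Smarc). That pattern matched 83 of 16096 rows, and 81 rows with 80 symbols were analysed, Hdac4 being listed under a pair of identifiers. The other 2 matching rows were not analysed here. 

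Ezh2 is the catalytic subunit of Polycomb repressive complex 2 (PRC2), which methylates lysine 27 of histone H3 and keeps developmental genes silent. The Kdm6 demethylases remove that methyl mark, and the SWI/SNF (BAF) complex opposes Polycomb at many promoters. Acetyltransferases and deacetylases add and remove acetyl groups, Dnmt enzymes methylate cytosines in CG dinucleotides, and Tet enzymes oxidise the methyl group. In the developing retina, such enzymes are known for roles in the passage from dividing progenitors to neurons.

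The mutant tissue was Pax6alpha-Cre:Ezh2fl/null, with 1 floxed and 1 null Ezh2 allele, and its control was Pax6alpha-Cre:Ezh2fl/+, with 1 floxed and 1 wild-type allele, 4 libraries each. Both genotypes carried the Cre transgene and a floxed allele on C57BL/6, and the Pax6alpha element drives Cre in progenitors of the peripheral retina, so that the tissue, which was not sorted, can also hold cells without Cre. Control cells with Cre can lose the floxed allele and keep the wild-type one, so the control is not intact for Ezh2. Libraries were made from 1 µg of total RNA and held 13994825 to 18391647 counts. Nothing in the labels ties libraries to litters, and p-values therefore reflect only how these 8 samples vary. The counted Ezh2 transcript was not lower in Ezh2fl/null libraries, at 276, 251, 255 and 220.4 CPM (counts scaled to a common library size, after TMM normalization) against 235, 230.2, 197 and 207 CPM in Ezh2fl/+ libraries (log2 fold change 0.21, SE 0.07, edgeR adjusted p = 0.0701). A count over the whole gene takes in exons outside a deleted part, so it does not check the deletion.

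The tissue held its defining markers. The 5 retinal genes Rax, Pax6, Six3, Six6 and Lhx2 summed to 1220.2 to 1301 CPM in Ezh2fl/null and 1269 to 1399 CPM in Ezh2fl/+ libraries. The 7 progenitor markers summed to 6887 to 7737 CPM in Ezh2fl/null against 7837 to 9069 CPM in Ezh2fl/+, and 3 of them were lower in Ezh2fl/null. Of the neuronal lists, 3 of 7 amacrine and horizontal markers and 5 of 6 photoreceptor markers were higher, while of 8 retinal ganglion cell markers 0 were higher and 2 were lower. Lens crystallins reached 7.79 CPM in Ezh2fl/null and 13.2 CPM in Ezh2fl/+, and erythroid genes 885 CPM in Ezh2fl/null and 1320.3 CPM in Ezh2fl/+. Endothelial markers summed to 263 to 312 CPM in Ezh2fl/null against 328 to 357 CPM in Ezh2fl/+. Of the 3 endothelial markers tested, however, 1 was higher and 1 lower, with a median log2 fold change of 0.14, so the sum does not describe each marker. Microglial markers summed to 33.3 to 38.3 CPM in Ezh2fl/null against 25.5 to 30.8 CPM in Ezh2fl/+, and of 5 tested 2 were higher and 0 lower. Markers counted as higher or lower are those called by the threshold given in the next paragraph. By it, 8.35% of all genes tested were higher and 3.46% lower. In bulk tissue, fewer cells of a type and less RNA per cell cannot be told apart, and the part of these shifts in the values below was not tested. Xist, the RNA of the inactive X chromosome, had 1874 and 1714 counts in Ezh2fl/null replicates 2 and 3 and at most 4 counts in each of the other 6 libraries, so embryo sex was not balanced between the genotypes.

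Few of the chromatin enzymes were called as different. A gene was called when its Benjamini-Hochberg adjusted p, over the 15014 genes tested by edgeR's quasi-likelihood test, was under 0.05. All 81 members were tested, and 3 were called (3.70%), whereas 11.8% of all genes tested were. The count of members depended on single libraries, and rose without Ezh2fl/null replicate 4 and fell without Ezh2fl/+ replicate 2, as given below. Chd5 and Hdac9 were higher in Ezh2fl/null, which is 2 members against a background of 8.35% of all genes, and Kdm1b was lower, 1 member against 3.46%. At an unadjusted p under 0.05, 12 members (14.8%) passed, 7 of them lower, against 24.0% of all genes. Of the 3607 genes that passed, 1525 were lower. The members' log2 fold changes spanned -0.25 for Setd1b to 0.28 for Kdm6a, neither of which was called.

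The limits on these changes were narrow. For 72 of 81 members (88.9%) the whole 95% interval of the fold change lay within 1.25-fold in either direction, against 57.8% of all genes tested, and the farthest limit of any member was 0.53 on the log2 scale (Kdm6a). The members were more abundant than most genes, with a median of 92.7 CPM against 23.8 CPM over all genes, and their median SE was 0.06 against 0.08. No member had under 45 counts in any library. The median log2 fold change was -0.04 over the members and -0.01 over all genes, and 54 of 81 members (66.7%) were below 0 against 52.4% of all genes. With library size alone as the scaling 49 members were below 0 (median -0.02), against 45.0% of all genes (median 0.02). In the 6 libraries without Xist 47 members were (median -0.01), against 52.3% of all genes (median -0.01). The count of members whose libraries did not overlap was 1 above (Hdac9, background 10.1%) and 3 below (Kdm1b, Setd8 and Kat5, background 6.21%).

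**Figure D1:**
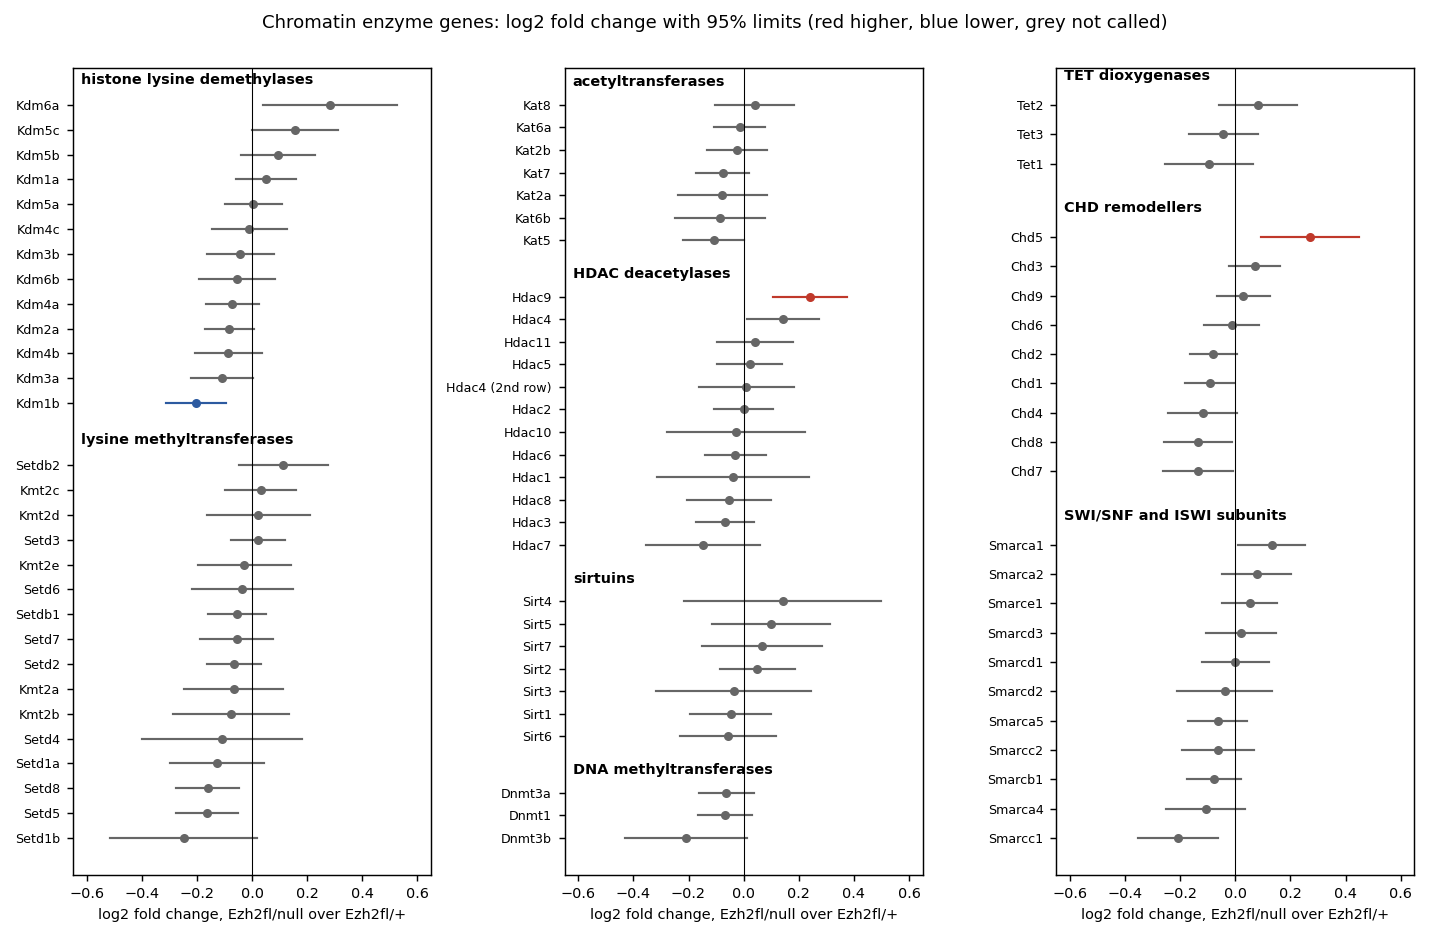
Log2 fold change of each of the 81 rows, Ezh2fl/null over Ezh2fl/+, grouped by class, with points for the edgeR estimate and lines for its 95% limits. Chd5 and Hdac9 (red) were called higher and Kdm1b (blue) lower, the other 78 rows (grey) were not called, and the estimates lie between -0.25 and 0.28.

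Transcript levels, compared between genes by the deposited FPKM because it is scaled per length, ranged widely. Chd4, an ATPase of the NuRD complex, had the highest level of all members, at 101 ± 8.28 FPKM in Ezh2fl/null and 108 ± 2.04 FPKM in Ezh2fl/+ (SD, n = 4 each, as for every mean below). The BAF ATPase Smarca4 came next by its mean over the 8 libraries, at 79.0 ± 10.1 FPKM in Ezh2fl/null and 83.5 ± 2.44 FPKM in Ezh2fl/+. The deacetylase Hdac2 was close to it, at 80.9 ± 4.34 FPKM in Ezh2fl/null, above Smarca4, and 79.6 ± 3.29 FPKM in Ezh2fl/+, below it. Dnmt1, which copies CG methylation after replication, followed at 63.9 ± 2.76 FPKM in Ezh2fl/null and 65.9 ± 2.41 FPKM in Ezh2fl/+. Setd1b, a COMPASS-type H3K4 methyltransferase, was lowest, at 0.644 ± 0.120 FPKM in Ezh2fl/null and 0.754 ± 0.0658 FPKM in Ezh2fl/+. The median over the members was 11.4 FPKM, against 6.80 FPKM over all genes tested.

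**Figure D2:**
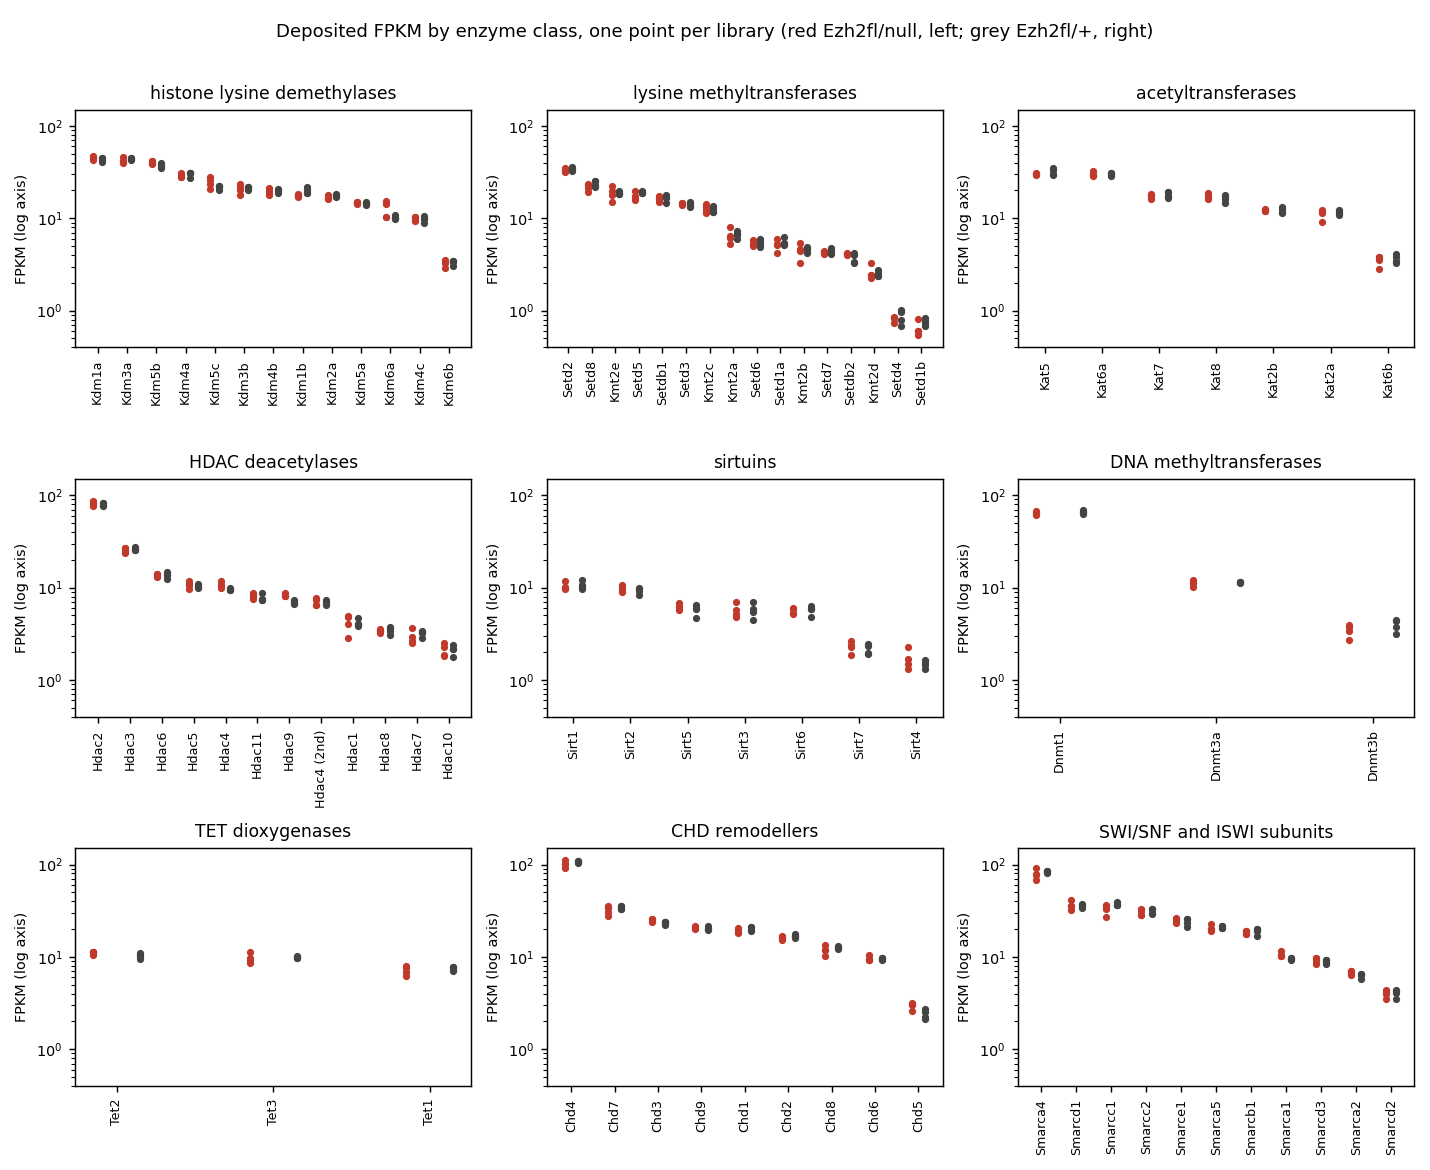
Deposited FPKM (log axis) of every member in every library, by class and in falling order of the mean, with Ezh2fl/null in red on the left and Ezh2fl/+ in grey on the right. Among the CHD remodellers, levels fall from 101 FPKM (Chd4) to 2.95 FPKM (Chd5) in Ezh2fl/null libraries, while the points of the genotypes lie nearly on each other.

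The 13 lysine demethylases gave 1 lower call, and their log2 fold changes ran from -0.20 to 0.28 with a median of -0.04. Kdm1b, which removes methyl groups from lysine 4 of histone H3 and is known in the mouse for its part in setting maternal imprints, had 81.2, 88.3, 87.3 and 81.5 CPM in Ezh2fl/null libraries, against 95.8, 104, 94.8 and 95.01 CPM in Ezh2fl/+ libraries. Every Ezh2fl/null library lay below every Ezh2fl/+ library. Its log2 fold change came to -0.20, with an SE of 0.05 and 95% limits of -0.31 and -0.10 (edgeR adjusted p = 0.0150). The exact two-sided permutation p was 0.0286, the smallest that 70 assignments of 4 and 4 libraries allow. The call stayed under the threshold in 15 of 17 alternatives and was lost with library size alone (adjusted p = 0.0815) and without Ezh2fl/+ replicate 2 (adjusted p = 0.0536). Kdm1b lies on chromosome 13 (mm10, 47043499 to 47085279, forward strand) and shares 505 exon bases, 9.19% of its exons, with Dek on the opposite strand. Dek, a chromatin protein gene, had 412 ± 27.6 CPM in Ezh2fl/null and 472 ± 20.3 CPM in Ezh2fl/+ and was called lower by the same log2 fold change of -0.20 (adjusted p = 0.0331). No source used here states if counting was strand-specific, so reads of the shared bases cannot be assigned to either gene.

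Kdm1a, the related demethylase of the CoREST complex, was the highest of the class, at 45.5 ± 1.98 FPKM in Ezh2fl/null and 43.2 ± 1.80 FPKM in Ezh2fl/+, with a log2 fold change of 0.05 (adjusted p = 0.623). Kdm6b, one of the enzymes that reverse the PRC2 mark, was the lowest of the class. It had 23.0, 20.6, 22.3 and 24.0 CPM in Ezh2fl/null libraries, against 24.3, 23.4, 22.4 and 23.3 CPM in Ezh2fl/+ libraries. Its log2 fold change was -0.05 (95% limits -0.19 to 0.08, adjusted p = 0.685), and the genotypes overlapped. The other Kdm6 gene, Kdm6a, is X-linked and is described with the sex of the libraries.

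None of the 16 lysine methyltransferases was called by edgeR, whereas DESeq2 called 1 (Setd5) and 2 had an unadjusted p under 0.05. Their log2 fold changes ran from -0.25 to 0.11, and 12 were below 0. Setd5, a SET-domain protein gene, had 216, 203, 205 and 239 CPM in Ezh2fl/null libraries, against 248, 233, 245 and 239.9 CPM in Ezh2fl/+ libraries (log2 fold change -0.16, SE 0.05, edgeR adjusted p = 0.0602). Setd8, the H4K20 monomethyltransferase (Kmt5a), had 85.5, 79.3, 91.2 and 91.5 CPM in Ezh2fl/null libraries, against 97.8, 100.2, 92.8 and 97.8 CPM in Ezh2fl/+ libraries, with no overlap between the genotypes (log2 fold change -0.16, SE 0.05, adjusted p = 0.0677). Setd5 and Setd8 were under the threshold once Ezh2fl/null replicate 4 was left out (adjusted p = 0.00509 and 0.0411). In the 6 libraries without Xist, the log2 fold change was -0.09 for Setd5 (adjusted p = 0.4997), -0.14 for Setd8 (0.246) and -0.13 for Setd1b (0.747). Setd8 is named here after its values were seen. Setd2, the H3K36 methyltransferase, was the highest of the class, at 33.0 ± 1.54 FPKM in Ezh2fl/null and 33.9 ± 1.35 FPKM in Ezh2fl/+. Setd1b had 6.56, 6.75, 5.84 and 8.65 CPM in Ezh2fl/null, against 9.51, 8.19, 7.72 and 7.74 CPM in Ezh2fl/+, with 95% limits of -0.52 to 0.02 around its log2 fold change of -0.25 (adjusted p = 0.248). Ezh2fl/null replicate 4 alone overlapped the Ezh2fl/+ libraries for Setd1b.

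None of the 7 acetyltransferases was called by edgeR or DESeq2 or had an unadjusted p under 0.05, and their log2 fold changes ran from -0.11 to 0.04 with a median of -0.08. Kat5, the Tip60 acetyltransferase and the highest of the class, had 59.9, 61.0, 60.4 and 58.6 CPM in Ezh2fl/null libraries, against 63.9, 68.2, 61.4 and 65.2 CPM in Ezh2fl/+ libraries. The genotypes did not overlap, and the log2 fold change was -0.11 (adjusted p = 0.219). Kat5 shares 426 exon bases with Rnaseh2c on the opposite strand, 12.1% of its exons. Kat6b, the lowest, had 3.51 ± 0.456 FPKM in Ezh2fl/null and 3.66 ± 0.362 FPKM in Ezh2fl/+.

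Among the 12 rows of classical deacetylases, with log2 fold changes of -0.15 to 0.24, Hdac9 was called higher. This class IIa enzyme, known for binding Mef2 factors and for an abundant short form without the catalytic domain, had 37.9, 37.2, 35.0 and 36.3 CPM in Ezh2fl/null libraries, against 33.9, 28.5, 31.9 and 29.8 CPM in Ezh2fl/+ libraries. All Ezh2fl/null libraries lay above all Ezh2fl/+ libraries. Its log2 fold change came to 0.24, with an SE of 0.06 and 95% limits of 0.11 and 0.38 (edgeR adjusted p = 0.0194, exact permutation p = 0.0286). The call held in 12 of 17 alternatives. It was lost without Ezh2fl/null replicate 1, Ezh2fl/+ replicate 2 or Ezh2fl/+ replicate 4, and with a term for sex or in the 6 libraries without Xist (log2 fold change 0.26, adjusted p = 0.0628). Over all 17 alternatives the log2 fold change was 0.20 to 0.29 and the adjusted p 0.0116 to 0.0785.

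Hdac1 and Hdac2, the deacetylases of the Sin3, NuRD and CoREST complexes, were not called. Hdac2 had 379, 366, 364 and 328 CPM in Ezh2fl/null libraries, against 356, 360.3, 365 and 356 CPM in Ezh2fl/+ libraries (95% limits of the log2 fold change -0.11 to 0.11). Hdac1, its close paralog, had 13.6, 10.2, 16.5 and 15.9 CPM in Ezh2fl/null against 13.9, 13.7, 17.0 and 13.4 CPM in Ezh2fl/+ (95% limits -0.31 to 0.24). Hdac1 is matched over 1444 bases at 99.4% identity by the processed pseudogene Gm10093, so its level is uncertain. The table listed Gm10093 at 0.910 ± 0.835 CPM in Ezh2fl/null and 2.18 ± 0.885 CPM in Ezh2fl/+. The class IIa gene Hdac4 was listed in 2 rows, at 42.0 ± 2.77 and 16.7 ± 1.25 CPM in Ezh2fl/null, against 38.0 ± 1.51 and 16.6 ± 1.28 CPM in Ezh2fl/+, and neither was called. Hdac10 had the lowest level of the class, at 2.12 ± 0.327 FPKM in Ezh2fl/null and 2.12 ± 0.253 FPKM in Ezh2fl/+.

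None of the 7 sirtuins, the NAD-dependent deacylases, was called by edgeR or DESeq2 or had an unadjusted p under 0.05, and theirs was the only class with a median above 0 (0.05, with a range of -0.06 to 0.14). Sirt1 was the highest, at 10.4 ± 0.880 FPKM in Ezh2fl/null and 10.6 ± 1.02 FPKM in Ezh2fl/+. Sirt4, a mitochondrial member and the lowest, had 1.68 ± 0.425 FPKM in Ezh2fl/null and 1.498 ± 0.147 FPKM in Ezh2fl/+, with 95% limits of -0.22 to 0.50 around its log2 fold change.

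The 3 DNA methyltransferases and 3 Tet genes gave no call by edgeR or DESeq2, and none had an unadjusted p under 0.05. Dnmt1 had 389, 400.4, 394 and 415 CPM in Ezh2fl/null libraries, against 416, 408, 433 and 419 CPM in Ezh2fl/+ libraries (log2 fold change -0.07, 95% limits -0.17 to 0.03). Dnmt3a, a de novo methyltransferase, had 182, 172, 184 and 195 CPM in Ezh2fl/null against 201, 186, 194 and 186 CPM in Ezh2fl/+ (log2 fold change -0.06, 95% limits -0.16 to 0.04). Dnmt3b, the other de novo enzyme, was rarer. It had 17.2, 14.3, 18.7 and 19.6 CPM in Ezh2fl/null, against 16.8, 22.4, 19.99 and 21.4 CPM in Ezh2fl/+ (log2 fold change -0.21, SE 0.10, adjusted p = 0.241). Uhrf1, which brings Dnmt1 to hemimethylated CG sites and is not among the members, was lower in Ezh2fl/null, at 200.2, 165, 206 and 200.4 CPM, against 222, 262, 247 and 238 CPM in Ezh2fl/+ with no overlap (log2 fold change -0.33, SE 0.07, adjusted p = 0.00432). It was the only call among the 7 readers and partners of DNA methylation tested, and the part of the lower progenitor markers given above in its level was not tested.

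The Tet genes, whose products oxidise 5-methylcytosine, were of like level. Tet2 had 11.1 ± 0.355 FPKM in Ezh2fl/null and 10.3 ± 0.677 FPKM in Ezh2fl/+. Tet3 had 9.71 ± 1.10 FPKM in Ezh2fl/null and 9.84 ± 0.244 FPKM in Ezh2fl/+, and Tet1 had 7.17 ± 0.769 FPKM in Ezh2fl/null and 7.53 ± 0.369 FPKM in Ezh2fl/+. Their log2 fold changes of 0.08, -0.04 and -0.10 all had limits on each side of 0, within -0.26 and 0.22.

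Of the 9 CHD remodellers, with log2 fold changes of -0.14 to 0.27 and 6 below 0, Chd5 was called higher. At an unadjusted p under 0.05, 4 passed, namely Chd5 and, with values below 0, Chd1, Chd7 and Chd8, which are named after their values were seen. Chd5, a NuRD-type ATPase known as a neuronal gene, had 29.7, 25.5, 28.3 and 28.7 CPM in Ezh2fl/null libraries, against 27.4, 20.8, 21.5 and 23.5 CPM in Ezh2fl/+ libraries. Ezh2fl/+ replicate 1 lay above Ezh2fl/null replicate 2, so the genotypes overlapped. Its log2 fold change came to 0.27, with an SE of 0.08 and 95% limits of 0.09 and 0.45 (edgeR adjusted p = 0.0478, exact permutation p = 0.0571). The call held in 8 of 17 alternatives, over which the log2 fold change was 0.22 to 0.40 and the adjusted p 0.00338 to 0.149. It was lost when Ezh2fl/null replicate 1, 3 or 4 or Ezh2fl/+ replicate 2, 3 or 4 was left out, with no filter on low counts, with a term for sex, and in the 6 libraries without Xist (log2 fold change 0.33, adjusted p = 0.0680). Chd5 shares 101 exon bases with Gm13645 on the opposite strand, which was too low to be tested. It had the lowest level of its class, 2.95 ± 0.245 FPKM in Ezh2fl/null and 2.41 ± 0.274 FPKM in Ezh2fl/+. Chd4 had 800.4, 751, 798 and 867 CPM in Ezh2fl/null, against 882, 852, 921 and 835 CPM in Ezh2fl/+, with 95% limits of -0.24 to 0.01.

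None of the 11 SWI/SNF and ISWI genes was called by edgeR, whereas DESeq2 called 1 (Smarcc1) and 2 had an unadjusted p under 0.05 (Smarcc1 and Smarca1). Their log2 fold changes ran from -0.21 to 0.13. Smarcc1, a BAF scaffold subunit of progenitors and stem cells, had 231, 183, 213 and 235 CPM in Ezh2fl/null libraries, against 253, 256, 255 and 232 CPM in Ezh2fl/+ libraries (log2 fold change -0.21, SE 0.07, edgeR adjusted p = 0.0646). Only Ezh2fl/null replicate 4 and Ezh2fl/+ replicate 4 brought the genotypes to overlap, and in the 6 libraries without Xist the log2 fold change was -0.09. Of the BAF ATPases, Smarca4 had 488, 453, 505 and 580.2 CPM in Ezh2fl/null against 544, 542, 568 and 529.9 CPM in Ezh2fl/+ (log2 fold change -0.11, adjusted p = 0.375). Smarca2 had 55.2, 52.4, 49.3 and 53.6 CPM in Ezh2fl/null against 52.6, 50.6, 47.4 and 49.1 CPM in Ezh2fl/+ (log2 fold change 0.08, adjusted p = 0.474). The ISWI ATPase Smarca5 had 158 ± 11.9 CPM in Ezh2fl/null and 166 ± 2.72 CPM in Ezh2fl/+ (log2 fold change -0.06), a gene with 6 near-identical pseudogenes in the annotation. Its paralog Smarca1, X-linked and known from neurons, had 69.4, 66.6, 62.2 and 60.6 CPM in Ezh2fl/null, against 61.1, 57.7, 60.0 and 57.5 CPM in Ezh2fl/+ (log2 fold change 0.13, adjusted p = 0.170). Smarcd2 was the lowest subunit, at 4.00 ± 0.383 FPKM in Ezh2fl/null and 4.05 ± 0.357 FPKM in Ezh2fl/+.

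**Figure D3:**
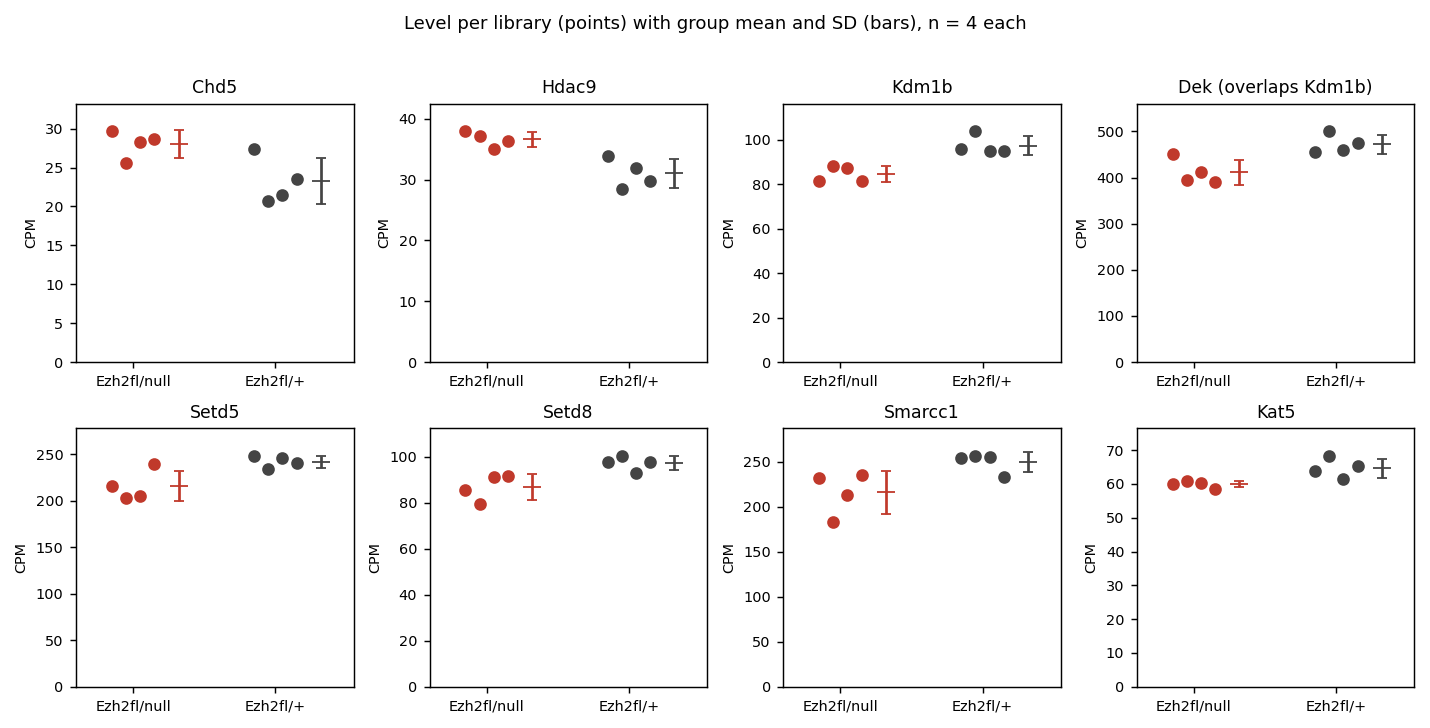
CPM of 8 genes in each library, Ezh2fl/null on the left and Ezh2fl/+ on the right of each panel, with points for libraries and bars for the mean and SD (n = 4 each). The Kdm1b and Hdac9 points do not overlap between the genotypes, Chd5 overlaps through Ezh2fl/+ replicate 1 at 27.4 CPM, and Dek lies below its Ezh2fl/+ libraries as Kdm1b does.

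The promoters of the 3 called genes are shown because PRC2 is known in mouse cells to gather at promoters rich in CG dinucleotides. Each sequence is the 250 bases before a RefSeq start site (GRCm38.p6), 5′ to 3′ on the strand of the gene, with every CG in capitals. They lie at chr4:152338401-152338650 (forward strand) for Chd5, chr12:34528890-34529139 and chr12:34917096-34917345 (reverse strand) for both starts of Hdac9, and chr13:47043249-47043498 (forward strand) for Kdm1b.
Chd5: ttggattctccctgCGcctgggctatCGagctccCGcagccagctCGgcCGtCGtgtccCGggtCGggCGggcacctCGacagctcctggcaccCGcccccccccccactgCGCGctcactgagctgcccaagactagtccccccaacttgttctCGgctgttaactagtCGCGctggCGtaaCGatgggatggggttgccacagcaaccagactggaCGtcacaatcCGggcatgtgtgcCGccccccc
Hdac9, inner start: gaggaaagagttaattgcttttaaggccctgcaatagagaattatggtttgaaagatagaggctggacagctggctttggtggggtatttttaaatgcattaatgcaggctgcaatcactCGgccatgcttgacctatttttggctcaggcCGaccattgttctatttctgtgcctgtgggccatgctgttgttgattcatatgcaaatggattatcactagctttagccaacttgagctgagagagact
Hdac9, outer start: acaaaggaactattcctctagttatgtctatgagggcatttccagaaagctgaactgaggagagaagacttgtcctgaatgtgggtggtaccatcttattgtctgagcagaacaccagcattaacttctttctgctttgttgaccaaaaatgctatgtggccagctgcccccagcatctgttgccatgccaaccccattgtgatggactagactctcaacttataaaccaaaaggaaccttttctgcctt
Kdm1b: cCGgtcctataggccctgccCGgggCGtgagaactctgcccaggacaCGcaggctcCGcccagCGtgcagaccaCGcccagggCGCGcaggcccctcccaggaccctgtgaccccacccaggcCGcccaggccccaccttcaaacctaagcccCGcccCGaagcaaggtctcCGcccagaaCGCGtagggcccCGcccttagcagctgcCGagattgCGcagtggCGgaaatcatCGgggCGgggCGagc
The Chd5 window holds 21 CG, and 16.3% of all start sites hold at least that many. The Kdm1b window holds 22 CG (14.8% of start sites hold at least that many). The windows of Hdac9 hold 2 (81.2%) at the inner start and 0 at the outer one. By the windows shown, the genes called higher therefore had a CG-rich start (Chd5) and CG-poor starts (Hdac9), and the gene called lower had a CG-rich one. PRC2 binding was not measured in these libraries. Of the 80 member symbols, 62 had an entry, with a median of 21 CG at the richest start against 6 over all genes, and 44 of the 62 had at least 15, against 29.6% of all genes.

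Of the members, 5 are X-linked, and sex was uneven between the genotypes. Kdm6a, the X-linked H3K27 demethylase that is known to escape X inactivation in mice, had 83.8, 128, 115 and 81.6 CPM in Ezh2fl/null libraries, against 85.9, 80.2, 84.0 and 84.6 CPM in Ezh2fl/+ libraries. Both libraries with Xist were high, and Ezh2fl/null replicates 1 and 4, without Xist, lay within the range of the Ezh2fl/+ libraries. Within Ezh2fl/null, the libraries with Xist exceeded those without by a log2 difference of 0.55 (SE 0.07, edgeR adjusted p = 0.00567, spread shared over all 8 libraries). In that contrast 5 genes of 15014 were called (0.0333%), 4 Y-linked ones and Kdm6a. Xist itself was removed by the filter on low counts and was not tested. The Kdm6a call was lost without Ezh2fl/null replicate 2 (adjusted p = 0.163) or replicate 4 (adjusted p = 0.0845), which leave 1 library on one side. At an unadjusted p under 0.05 the contrast took in 14 of 81 members, 12 of them lower in the libraries with Xist, against 5.23% of all genes. The directions were not counted over all genes. Replicate 4, without Xist, held the highest level of the Ezh2fl/null group for 40 members, against 27.3% of all genes. Replicate 2, with Xist, held the lowest for 34, for which the share over all genes was not computed. Sex and the traits of single libraries therefore cannot be told apart in this count. In the 6 libraries without Xist, the log2 fold change of Kdm6a between the genotypes was -0.02 (adjusted p = 0.933), against 0.28 (adjusted p = 0.137) over all 8. Without Ezh2fl/null replicate 1 or 4, neither of which holds Xist, Kdm6a was called higher in Ezh2fl/null (log2 fold change 0.37, adjusted p = 0.0488, and 0.38, adjusted p = 0.0299).

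Kdm5c, an X-linked H3K4 demethylase that also escapes inactivation, had 146, 192, 194 and 164 CPM in Ezh2fl/null libraries, against 151, 156, 162 and 154 CPM in Ezh2fl/+ libraries. The libraries with Xist were again the high ones, by a log2 difference of 0.31 (SE 0.06, adjusted p = 0.469), and in the 6 libraries without Xist the genotypes differed by -0.01. Without Ezh2fl/null replicate 1, Kdm5c was called higher in Ezh2fl/null (log2 fold change 0.23, adjusted p = 0.0191). Hdac6, the cytoplasmic tubulin deacetylase, had 74.4, 80.1, 80.0 and 79.9 CPM in Ezh2fl/null against 76.2, 78.1, 84.5 and 82.1 CPM in Ezh2fl/+. Hdac8 had 16.3, 16.8, 15.2 and 16.8 CPM in Ezh2fl/null against 15.7, 17.6, 17.0 and 17.2 CPM in Ezh2fl/+. Their log2 differences between Ezh2fl/null libraries with and without Xist were 0.05 and -0.05, and that of Smarca1 was -0.02. Over 534 X-linked genes tested, which did not include Xist, 1 was called and the median log2 difference was -0.00076.

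Uty is the Y-linked homolog of Kdm6a. Its level was 0.0352 and 0.0260 FPKM in the Ezh2fl/null libraries with Xist and 8.62 and 6.96 FPKM in those without, against 7.64, 8.19, 7.74 and 8.04 FPKM in Ezh2fl/+ libraries. Kdm6a had 15.2 and 14.3 FPKM in the libraries with Xist and 10.4 and 10.3 FPKM in Ezh2fl/null libraries without, against 10.04, 10.1, 9.82 and 10.7 FPKM in Ezh2fl/+. The sum of both was thus 15.3 and 14.3 FPKM with Xist and 19.0 and 17.3 FPKM without in Ezh2fl/null, against 17.6 to 18.8 FPKM in Ezh2fl/+. The libraries with Xist had the lowest sums of the 8.

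**Figure D4:**
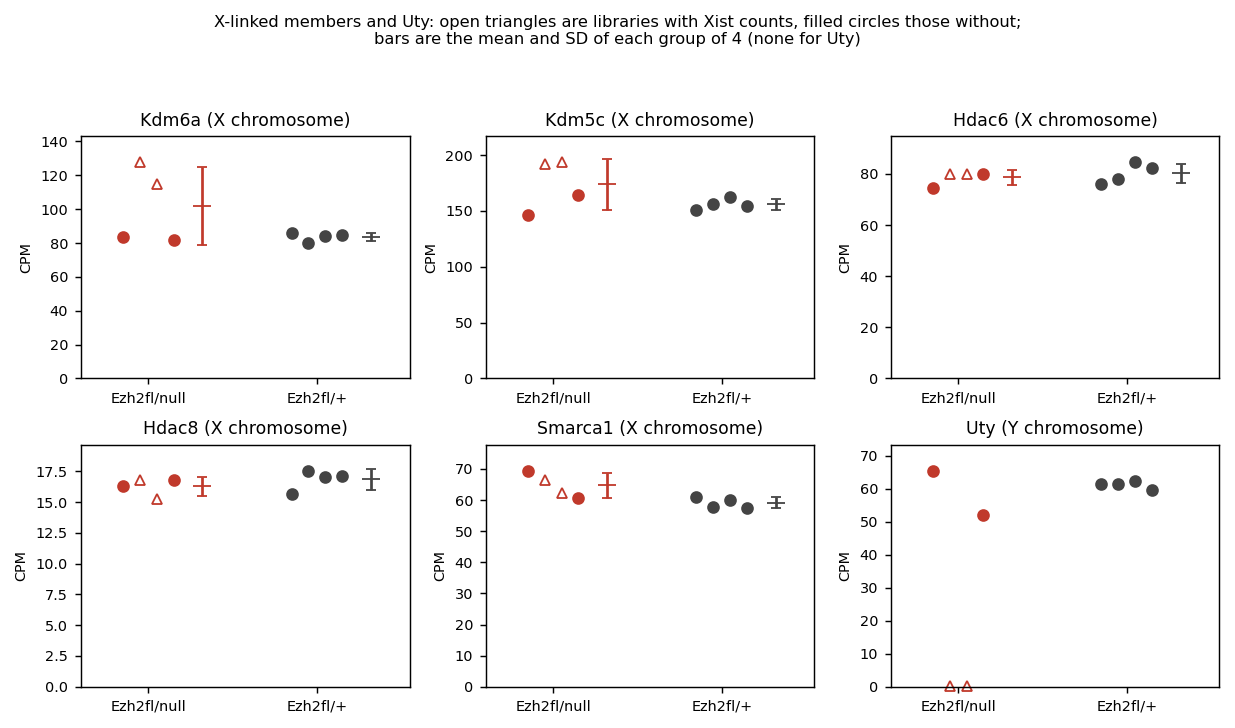
CPM of the 5 X-linked members and of Y-linked Uty by library, Ezh2fl/null (red) left of Ezh2fl/+ (grey), with open triangles for the libraries with Xist and bars for the mean and SD (n = 4 each, none for Uty). Kdm6a and Kdm5c are high in the triangles (128 and 115 CPM, 192 and 194 CPM) and level elsewhere, while Hdac6, Hdac8 and Smarca1 do not separate.

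Related genes outside the members gave 1 higher and 4 lower calls among 88 rows tested, beside backgrounds of 8.35% and 3.46% of all genes. Their lists held partners and subunits of complexes, other methyltransferases, acetyltransferases and remodellers, and the PRC2 core with Ezh2 itself. Their median log2 fold change was -0.06 and 70 rows were below 0, against 52.4% of all genes. Bcl11b, a BAF subunit and transcription factor of neurons, was higher, at 20.3, 21.2, 21.5 and 24.7 CPM in Ezh2fl/null against 15.7, 12.5, 13.2 and 13.6 CPM in Ezh2fl/+ (log2 fold change 0.67, SE 0.09, adjusted p = 0.000101). It exceeded every member in size of change. Among 19 BAF subunits without a Smarc symbol, Arid1b was lower (log2 fold change -0.20, adjusted p = 0.0376) and 17 were not called, among them the neuronal subunits Actl6b (0.21, adjusted p = 0.0759) and Dpf3 (0.21, adjusted p = 0.128). Of 18 corepressor partners of the deacetylases, Rcor2 (log2 fold change -0.26) and Tbl1x (-0.22) were lower, each with an adjusted p of 0.0179. In the 6 libraries without Xist, Bcl11b (adjusted p = 0.00117) and Uhrf1 (0.0185) stayed under the threshold and Arid1b (0.406), Rcor2 (0.0780) and Tbl1x (0.183) did not. By edgeR, the 15 other lysine methyltransferases, 3 other acetyltransferases, 9 COMPASS partners, 13 rows of other remodellers and the 4 rows of PRC2 core subunits held no call. Their rows with an unadjusted p under 0.05 numbered 1, 0, 1, 3 and 1 in that order, and DESeq2 called 1 of them, Ezh2. In the lists with calls, 5 of 19 BAF subunits and 7 of 18 corepressor partners had an unadjusted p under 0.05. So did 1 of 7 readers and partners of DNA methylation. Over all genes tested the share was 24.0%.

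Single libraries weighed on the counts of members. Ezh2fl/null replicate 4 held the highest level of its group for 40 of 81 members, against 27.3% of all genes. Ezh2fl/null replicate 2 held the lowest for 34, for which the share over all genes was not computed. Replicate 2 also had the highest mitochondrial share of any library (14.3%) and was 1 of the 2 libraries with lens crystallin counts. Without replicate 4 the edgeR calls were 2 higher (Hdac9 and Kdm6a) and 8 lower (Kdm1b, Smarcc1, Setd5, Setd8, Chd7, Chd8, Smarca4 and Setd1b), beside backgrounds of 8.15% and 4.41% of all genes. The median log2 fold change of the members was then -0.07. Replicate 4 is without Xist, so leaving it out makes sex less balanced between the genotypes. In the 6 libraries without Xist, only Kdm1b of these members was called. There the log2 fold change was -0.09 for Smarcc1, -0.04 for Chd7, -0.05 for Chd8 and -0.03 for Smarca4. Without Ezh2fl/+ replicate 2 the adjusted p was 0.0536 for Kdm1b, 0.0785 for Hdac9 and 0.149 for Chd5, and no other member was called. In the authors' deposited table, 5 members pass 0.05 if its score is read as 10 times the negative log10 of an adjusted p, a scale that the table does not name: Chd5 and Hdac9 higher, Kdm1b, Smarcc1 and Setd5 lower.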

How the data were processed

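RNA from 4 Ezh2fl/null and 4 Ezh2fl/+ retinal samples was sequenced on an Illumina platform. The submitters' processing notes name Novoalign 2.08.01, the mm10 build and DESeq2. No source used here names the counter, its annotation or its strand setting. The deposited table holds raw counts per gene, FPKM scaled by the authors for length and depth, the authors' log2 ratio between the genotypes, and the authors' score for an adjusted p-value on a scale that the table does not name. The log2 ratio and the score were only copied.

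From the deposited counts, edgeR 4.0.16 (R 4.3.3) was run with TMM normalization, filterByExpr (minimum count 10) and the quasi-likelihood test, with Benjamini-Hochberg adjustment over 15014 genes. The test was checked on simulated data with changes larger than that of any member, so the check does not cover changes of the members' size. DESeq2 1.42.0, other scalings, no filter, a replicate block, a term for sex, libraries without Xist alone (fewer than 100 counts) and leaving out libraries were the alternatives. Replicate numbers were not used as pairs in the main fit. Library totals were 13994825 to 18391647. Mitochondrial genes took 8.41 to 14.3% of counts. Gene positions, overlaps and near copies (blastn 2.17.0, at least 95% identity over 500 bases) came from GENCODE M21, in which 80 of 81 identifiers matched. Promoters came from RefSeq. Named genes were called members, X-linked members, the highest and lowest FPKM of each class, 14 enzymes set by name and the 5 uncalled members with the largest change. Members and lists were chosen with earlier results of these data known. A marker gene of the retinal lists is not reported here.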

Additional observations from a re-analysis of the deposited data

Results flagged for a closer look

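Among the named members, 5 of 64 groups of 4 libraries held 1 library far from the other three by Dixon's test at the 95% level, which chance gives for about 1 group in 20. Kdm1b in Ezh2fl/+ replicate 2 had 103.7 CPM, against 94.8 to 95.8 CPM in the other Ezh2fl/+ libraries, and the Kdm1b call was lost without that library (adjusted p = 0.0536). Smarcc1 in Ezh2fl/+ replicate 4 had 232.4 CPM, against 253 to 256 CPM. Setd2 in Ezh2fl/+ replicate 2 had 354.1 CPM, against 362 to 364 CPM. Hdac1 in Ezh2fl/+ replicate 3 had 17.0 CPM, against 13.4 to 13.9 CPM. Hdac6 in Ezh2fl/null replicate 1 had 74.4 CPM, against 79.9 to 80.1 CPM.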

How the results depend on the processing

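No alternative reversed a call among the named members. Of 544 settings of single members, 514 kept direction and side of the threshold or moved by less than the replicate spread, 16 lost a call, 10 gained one and 4 moved further. The 2 members called higher became 1 with no filter on low counts and 0 with a sex term or in the libraries without Xist. The 1 member called lower became 0 with library size alone and 3 with DESeq2. With 1 library left out, the counts of members were 0 to 2 higher and 0 to 8 lower. Over all genes, the 1253 higher calls became 795 with a sex term and 800 in the libraries without Xist, and 1008 to 1233 with 1 library left out. The 520 lower calls became 273 with library size alone, 246 with a sex term, 255 in the libraries without Xist and 323 without the 2 libraries that held lens crystallins, and 329 to 667 with 1 library left out. The contrast by Xist within Ezh2fl/null called 0 to 1 members with 1 library left out (Kdm6a was lost without Ezh2fl/null replicate 2, adjusted p = 0.163, or replicate 4, adjusted p = 0.0845), and its 5 calls over all genes became 8 with no filter and up to 10 without 1 library. The cause was not tested, beyond the smaller number of libraries in those that leave some out. The replicate block gave 2 members higher and 1 lower and, over all genes, 1179 higher and 497 lower. Same-numbered libraries correlated at 0.23, -0.087, 0.0055 and 0.17. The best-correlated Ezh2fl/+ library bore the same number for Ezh2fl/null replicates 1 and 4 but not for 2 and 3. These correlations do not decide if the numbers pair the libraries. Depth limits the rarest members most, where the interval of Sirt4 spans -0.22 to 0.50.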
